A study of Mus musculus with 4 samples.

Results

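The C-type lectin genes examined here are the protein-coding mouse genes whose symbol is Clec followed by a number and a letter, with Clec16a left out. There were 32 such genes among 21887 protein-coding genes, and 25 of them lie on chromosome 6. Each locus was the gene body with 10 kb on either side (mm10, the GRCm38 assembly). Every accessible interval that touched a locus was taken from the deposited list of each library. Overlapping intervals of the 4 libraries were joined into regions, which gave 136 regions in these loci among 120423 in all. Of the 136 regions, 19 fell in more than 1 locus, because 8 of the genes have neighbours close enough to share them, and each was counted once.

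Omni-ATAC-seq, in which a transposase cuts and tags accessible DNA, was applied to bone marrow-derived cells of C57BL/6J mice. There was 1 library each of WT and Cxcr3-/- cells described as common myeloid progenitors and granulocyte-monocyte progenitors (CMP/GMP), and 1 each of WT and Cxcr3-/- monocytes. The design text describes mice of both genotypes given diethylnitrosamine and CCl4, and it places the cells used for this assay in culture, while the labels carry hepatocellular carcinoma as disease state for all 4 libraries. The deleted part of Cxcr3, the age of the animals, whether the donors of the cultured cells were treated, how many were pooled and the culture factors are not given in the sources used here. Each group is a single library, so differences stand without replicates or p-values, and the intervals printed cover counting error only. Where 4 tag counts follow each other, the first pair is CMP/GMP (WT, then Cxcr3-/-) and the second pair is monocytes (WT, then Cxcr3-/-). Because each library measures many cells at once, fewer cells with a region accessible and less access per cell cannot be told apart.

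C-type lectin receptors are membrane proteins with a carbohydrate-recognition fold that myeloid cells use to sense fungi, mycobacteria, dead cells and the body's own sugars. Activating members signal through Syk, either by a motif in their own tail or through adaptors such as FcRγ and DAP12, and then through Card9, while inhibitory members recruit phosphatases. In the mouse most of them sit in clusters on chromosome 6 beside the genes of natural killer (NK) cell receptors, among them the Clr proteins that serve as ligands of NK receptors.

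The signal of a region in a library was the number of tags stacked at its highest summit, the summit pileup. The median pileup over all intervals was 21, 29, 21 and 21 tags, and in the C-type lectin loci it was 21.5, 33, 24 and 24. The targeted gene had a region over one annotated end, chrX:101733698-101734465, with 34, 84, 41 and 23 tags; since the deleted part is not given, this checks nothing about the genotype. Marker loci of the labelled cell types carried intervals in every library, for 9 of 9 monocyte and 10 of 10 CMP/GMP genes. Over the CMP/GMP marker regions the median log2 ratio of monocytes to CMP/GMP was −1.13 in WT and −1.04 in Cxcr3-/-, and over the monocyte marker regions it was 0.18 and 0.26. Endothelial marker regions had medians of 0.47 in WT (3 regions) and 0.86 in Cxcr3-/- (6 regions), at least as high as those of the C-type lectin regions given below, and dendritic cell marker regions had −0.04 (12) and 0.23 (13). The other lists were below 0 in each genotype, from −0.41 to −0.08 in WT (1 to 5 regions a list) and from −1.48 to −0.04 in Cxcr3-/- (4 or 5 regions). Intervals were also present in each library at 5 of 5 dendritic cell, 4 of 4 B cell, 5 of 5 endothelial, 3 of 5 NK cell and 3 of 4 T cell marker loci, at 3 or 4 of 4 erythroid and at 4 or 5 of 5 megakaryocyte loci. These marker counts stand against 75.4% to 78% of all protein-coding genes with an interval in a library. An accessible locus is not a measure of expression, and the part of other cell types in the results below was not tested.

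Promoter windows, from 250 bases before to 50 bases after the start site, were found in RefSeq (GRCm38.p6) for 25 of the 32 genes. A called region overlapped the window of 13 of them in at least 1 library, of 10 in each CMP/GMP library, of 12 in WT monocytes and of 11 in Cxcr3-/- monocytes. The share over the promoter windows of all genes was not counted, so whether these numbers are high or low is not known. The 8 windows below are those whose region was called in all 4 libraries. Those of Clec12a, Clec4a3 and Clec5a were set by rule, and the other 5 were added after the values were seen. All 8 are written 5′ to 3′ on the gene's own strand, and capitals mark every match to a searched motif.
Clec7a, chr6:129472730-129473029, minus strand: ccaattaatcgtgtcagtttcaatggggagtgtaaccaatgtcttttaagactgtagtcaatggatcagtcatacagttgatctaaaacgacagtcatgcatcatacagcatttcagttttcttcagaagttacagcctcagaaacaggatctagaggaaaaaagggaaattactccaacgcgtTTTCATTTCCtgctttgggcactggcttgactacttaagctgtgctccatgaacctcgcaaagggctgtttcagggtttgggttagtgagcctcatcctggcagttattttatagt
Clec12a, chr6:129349994-129350293, plus strand: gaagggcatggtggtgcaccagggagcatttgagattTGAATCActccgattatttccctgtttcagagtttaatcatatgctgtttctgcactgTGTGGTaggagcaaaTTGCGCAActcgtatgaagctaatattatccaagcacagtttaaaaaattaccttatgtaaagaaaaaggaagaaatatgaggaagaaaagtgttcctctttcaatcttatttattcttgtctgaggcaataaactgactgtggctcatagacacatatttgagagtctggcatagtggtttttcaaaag
Clec4b1, chr6:123049712-123050011, plus strand: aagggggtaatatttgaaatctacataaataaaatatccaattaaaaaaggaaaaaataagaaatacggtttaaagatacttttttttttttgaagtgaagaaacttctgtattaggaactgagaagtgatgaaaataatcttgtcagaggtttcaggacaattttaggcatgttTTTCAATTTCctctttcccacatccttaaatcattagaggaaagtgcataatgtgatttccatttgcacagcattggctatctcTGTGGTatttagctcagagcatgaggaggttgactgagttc
Clec4e, chr6:123289822-123290121, minus strand: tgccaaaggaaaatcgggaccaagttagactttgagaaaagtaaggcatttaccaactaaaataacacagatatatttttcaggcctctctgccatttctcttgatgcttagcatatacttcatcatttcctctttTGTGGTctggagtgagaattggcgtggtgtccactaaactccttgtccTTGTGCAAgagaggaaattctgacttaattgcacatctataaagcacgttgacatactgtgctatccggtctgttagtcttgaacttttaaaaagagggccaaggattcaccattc
Clec4a3, chr6:122952265-122952564, plus strand: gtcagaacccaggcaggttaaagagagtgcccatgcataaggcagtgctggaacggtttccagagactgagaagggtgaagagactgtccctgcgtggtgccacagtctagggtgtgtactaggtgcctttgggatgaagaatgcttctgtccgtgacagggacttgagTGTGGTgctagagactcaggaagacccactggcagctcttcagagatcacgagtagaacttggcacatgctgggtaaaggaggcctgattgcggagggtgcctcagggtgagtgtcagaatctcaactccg
Clec4a1, chr6:122921598-122921897, plus strand: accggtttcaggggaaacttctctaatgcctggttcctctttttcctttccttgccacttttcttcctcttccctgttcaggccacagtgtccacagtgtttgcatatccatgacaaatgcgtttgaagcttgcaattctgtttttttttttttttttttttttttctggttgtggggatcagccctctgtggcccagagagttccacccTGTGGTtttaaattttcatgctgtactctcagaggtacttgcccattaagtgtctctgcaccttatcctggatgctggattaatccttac
Clec5a, chr6:40585756-40586055, minus strand: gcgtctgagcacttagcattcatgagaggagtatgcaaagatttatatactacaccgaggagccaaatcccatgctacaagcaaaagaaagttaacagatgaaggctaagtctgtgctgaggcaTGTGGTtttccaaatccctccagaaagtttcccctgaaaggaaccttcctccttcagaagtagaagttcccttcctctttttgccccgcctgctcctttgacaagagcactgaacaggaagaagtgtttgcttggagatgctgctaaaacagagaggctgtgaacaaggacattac
Clec2d, chr6:129180365-129180664, plus strand: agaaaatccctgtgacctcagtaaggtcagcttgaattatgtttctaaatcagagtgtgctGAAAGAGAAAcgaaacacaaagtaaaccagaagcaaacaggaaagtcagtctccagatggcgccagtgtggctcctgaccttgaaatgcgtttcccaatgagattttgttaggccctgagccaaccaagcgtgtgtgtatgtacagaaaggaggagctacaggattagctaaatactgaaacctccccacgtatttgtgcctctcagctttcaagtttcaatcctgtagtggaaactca

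Motifs were searched on both strands by their letters: GAGGAAGT for PU.1, TTGCNNAA for C/EBP, TGANTCA for AP-1, GAAA repeated after 2 free bases for interferon regulatory factors (IRF), GGAA followed by 1 free base and TGAAA for the composite of ETS and IRF factors, TGTGGT for RUNX, CCACACCC for KLF and TGCTGAC for MAF. In the Clec7a window the only match was the ETS-IRF composite, on the opposite strand at −66 from the start site, a word that 0.72% of 21238 promoter windows hold. Clec12a carried a palindromic C/EBP match at −140, an AP-1 match at −213 and a RUNX match at −155. Clec4e held a C/EBP match at −66 and a RUNX match at −114, and Clec4b1 held an IRF match at −75 and a RUNX match at 10. The windows of Clec4a3, Clec4a1 and Clec5a had a RUNX match only, at −81, −40 and −126, and that of Clec2d an IRF match only, at −189. Over the 28 windows of the 25 genes, RUNX letters occurred in 7 (25%, against 15% of all windows), AP-1 in 6 (21.4% against 6.99%), C/EBP in 5 (17.9% against 10.2%), the ETS-IRF composite in 4 (14.3% against 0.72%), IRF in 3 (10.7% against 3.34%), and KLF and MAF in 2 each (7.14% against 3.63% and 4.3%). The 4 composite matches came from only 2 genes, Clec7a and Clec2i, each counted in 2 windows. The PU.1 letters were in none of the 28 and in 3.13% of all windows. The IRF and composite words share letters and can overlap. A match is a run of letters and was not tested as a binding site.

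At least 1 interval was called in the loci of 29 and 30 of the 32 genes in the WT and Cxcr3-/- progenitors, and of 31 in each monocyte library. Over all protein-coding genes the shares were 76.9%, 78%, 77.9% and 75.4%. Clec14a, an endothelial gene, was the only C-type lectin gene with no interval in any library, as were 19.6% of all genes. Clec4f, a receptor of Kupffer cells, had 1 weak flanking interval in the monocyte libraries alone, with 16 tags in WT and 10 in Cxcr3-/-. In all, the loci held 80, 97, 112 and 89 intervals, in the same library order as the tag counts, which was 0.115%, 0.121%, 0.114% and 0.114% of each list. The order of these counts follows the lengths of the lists (69521, 80171, 98257 and 78244), so the loci took an almost constant share of each. Clec12b had the most intervals over the 4 libraries, 42, of which many were shared with its neighbours. It was followed by Clec12a with 31, Clec5a with 26, Clec9a with 25, Clec4d with 22, Clec4a3 and Clec4b2 with 21 each, Clec18a and Clec4n with 20 each, Clec1a with 19, Clec2g with 17 and Clec2e with 16. Most regions of the Clec18a locus lay in its flanks and overlapped another gene, Gm38523 or Pdpr.

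Within these loci, regions over an annotated gene end were the most constant. Of 15 such regions 11 were called in all 4 libraries (73.3%), against 25 of 65 in gene bodies (38.5%) and 20 of 56 in the flanks (35.7%). The same split over all regions was not made, so this order is not shown to be particular to these loci. The median scaled pileup, averaged over the libraries in which a region was called, was 38.1 tags at gene ends, 18.8 in bodies and 20.03 in flanks. Scaled pileups are tags divided by a factor per library so that the regions called in all 4 libraries have the same median. The highest level among the genes was in the body of Clec11a, and the lowest maxima were those of Clec2h, Clec2l and Clec4f, as the plot of each locus's highest region shows. Taking only the highest region, both monocyte libraries stood above both CMP/GMP libraries for 9 genes (Clec5a, Clec4a3, Clec4b1, Clec4e, Clec2i, Clec2e, Clec1b, Clec7a and Clec10a) and below both for another 9 (Clec4a2, Clec2g, Clec2f, Clec2d, Clec2m, Clec11a, Clec4g, Clec3a and Clec3b), on this scaling. The same count over all genes was not made, and some of these orders rest on small differences. Clec1b had 53.07 scaled tags in WT CMP/GMP and 55.66 in WT monocytes. Clec3b had 21.71 in Cxcr3-/- CMP/GMP and 21.55 in WT monocytes.

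**Figure D1:**
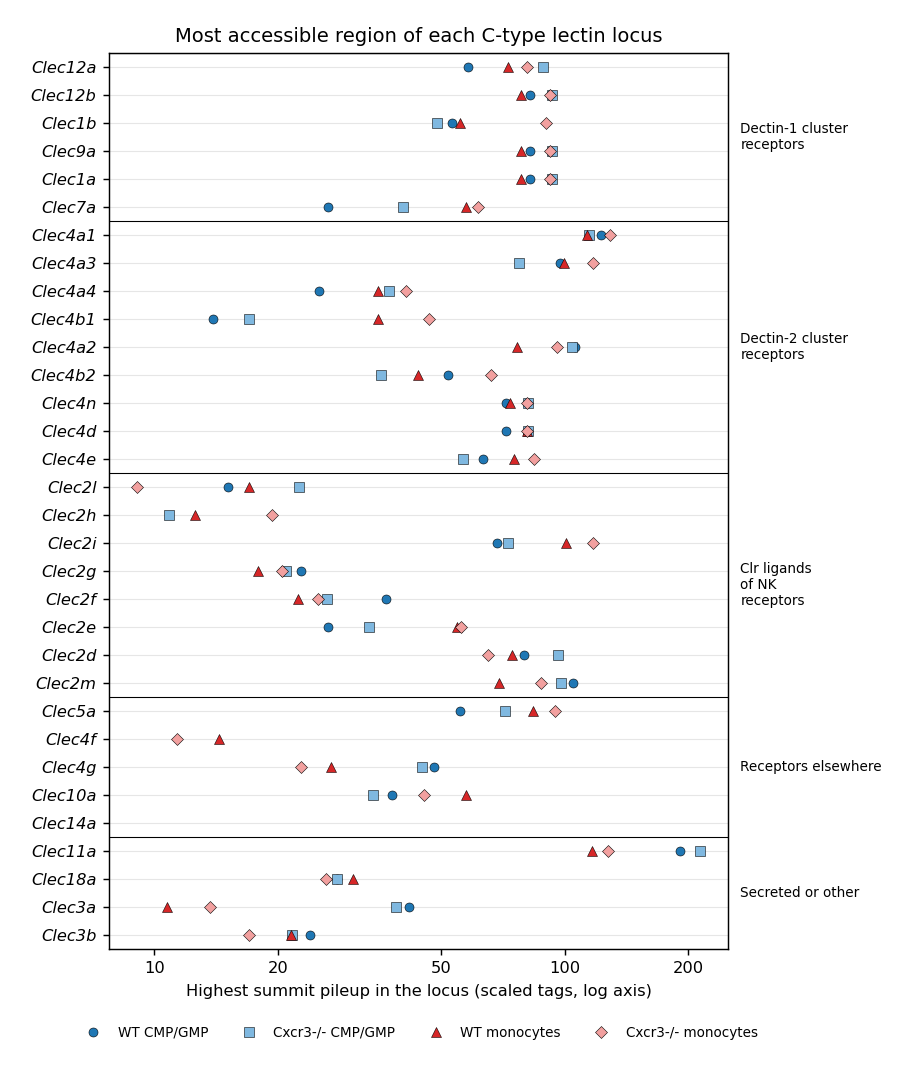
Highest summit pileup in each C-type lectin locus (scaled tags, log axis), 1 symbol per library and 1 row per gene, grouped by role; neighbouring genes that share a region share its value, and Clec14a has none. Among the 29 genes called in all 4 libraries, both monocyte symbols lie right of both CMP/GMP symbols for 9, such as Clec7a, Clec4b1 and Clec2e. For another 9, such as Clec11a, Clec4g and Clec3a, they lie to the left on this scaling. Background scaling turns the WT values of Clec11a and Clec4g, and the same count over all genes was not made.

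The first question was whether these loci differ between monocytes and their progenitors. In Cxcr3-/- cells the regions of C-type lectin loci had a median above 0, toward monocytes, under every setting tried, while in WT the median depended on which regions were kept. The log2 ratio of scaled pileups, monocytes over CMP/GMP, was taken where a region was called in both libraries with a mean of at least 30 tags. In WT its median was 0.41 over 35 regions, against 0.03 over 25520 regions of the genome, and 23 of the 35 (65.7%) were above 0, against 52.2% of all. In Cxcr3-/- it was 0.40 over 45 regions, against −0.10 over 29547, and 30 of the 45 (66.7%) were above 0, against 44.3%. More than 2-fold higher in monocytes were 6 regions in WT (17.1%, against 10.8% of all regions) and 7 in Cxcr3-/- (15.6% against 10.9%). More than 2-fold lower were 2 in WT (5.71% against 6.67%) and 3 in Cxcr3-/- (6.67% against 9.78%), shares close to those of all regions. In WT the median fell to 0.08 over 42 regions with 25 kb on either side of the genes, to 0.02 over 66 regions with a mean of at least 10 tags (−0.19 over all regions) and to −0.02 over the 12 regions with at least 60 tags (−0.03 over all). In Cxcr3-/- the same 3 settings gave 0.36, 0.29 and 0.29, against −0.10, −0.09 and −0.14 over all regions. The 95% counting interval lay above 0 for 14 regions in WT and 18 in Cxcr3-/- (40% each, against 20.7% and 20.4%).

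The scale of this comparison depends on how the libraries are matched. Scaled by background tag density in place of the shared regions, every ratio rises by 0.98 in WT and 0.45 in Cxcr3-/-, for C-type lectin regions and all others alike. The median of the C-type lectin regions then stood at 1.40 and 0.85, and 33 of 35 and 36 of 45 were above 0, against 93.1% and 69.4% of all regions. More than 2-fold higher were then 23 in WT and 19 in Cxcr3-/-, against 51% and 20.4% of all. What does not move with the scaling, at this pileup minimum, is the distance of these loci from the median of all regions, 0.38 in WT and 0.50 in Cxcr3-/-. The loci also lie among many genes, where the 1 Mb window centred on a region holds a median of 22 protein-coding genes, against 10 for all regions. In windows with at least 22 genes the WT median was 0.07 over 17 C-type lectin regions and also 0.07 over all 6145 regions, so there the lectin regions did not stand above the rest. With fewer genes around, it was 0.53 over 18 and 0.02 over 19375. In Cxcr3-/- the medians were 0.42 over 23 against −0.29 in the gene-rich windows, and 0.40 over 22 against −0.03 in the others.

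The genotypes gave similar ratios region by region, from 4 separate libraries. Of 34 regions measured in both, 30 had the same sign (88.2%, against 74.9% of 24376 regions). Pearson's r was 0.80 and Spearman's rho 0.76 across these regions, against 0.79 and 0.73 over all regions, so the likeness is that of the genome at large. The regions are not independent replicates, and some of them neighbour each other.

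**Figure D2:**
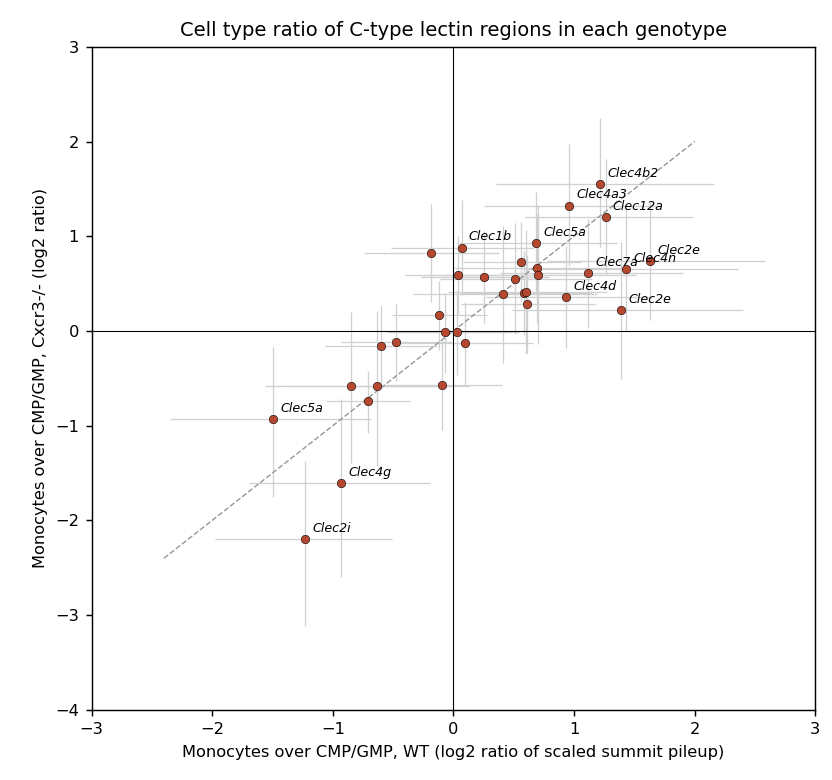
Log2 ratio of scaled summit pileup, monocytes over CMP/GMP, in WT (horizontal axis) and Cxcr3-/- (vertical axis) for the 34 C-type lectin regions measured in both; lines are 95% counting intervals and the dashed line marks equality. Most points lie in the upper right, led by regions of Clec2e, Clec4n, Clec12a and Clec4b2, and regions of Clec5a, Clec2i and Clec4g lie in the lower left; with background scaling Clec4g in WT is at 0.05.

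By presence alone, without a ratio, the loci did not stand toward monocytes. There were 17 regions called in both monocyte libraries and in neither CMP/GMP library, 12.5% of the 136, against 14.4% of all regions. The reverse held for 7 regions, 5.15% against 7.28%. All 4 libraries shared 56 regions, 41.2% against 37%. Regions called in a single library had at most 36 tags in Cxcr3-/- CMP/GMP (12 regions, 8.82% against 7.54% of all regions). The highest was 19 tags in WT monocytes (13 regions, 9.56% against 12.5%) and 16 in WT CMP/GMP (4, 2.94% against 2.94%). In Cxcr3-/- monocytes it was 11 tags (3 regions, 2.21% against 2.61%). The region with 36 tags, chr6:123127280-123127547 in the body of Clec4a2, was above the median pileup of its library, 29.

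Clec7a encodes Dectin-1, the receptor for fungal β-glucan, and lies on the minus strand at chr6:129461591-129472785. Its promoter region, chr6:129472613-129473036, whose window is printed above, had 21 tags in the WT progenitors and 52 in the Cxcr3-/- ones, against 64 and 54 in the monocytes of the same genotypes. After scaling both monocyte libraries stood above both CMP/GMP libraries, with a log2 ratio of 1.11 (95% counting interval 0.38 to 1.90) in WT and 0.61 (0.03 to 1.18) in Cxcr3-/-. A second region, centred at −1932 bp from the start site (chr6:129474627-129474808), was called only in CMP/GMP, with 13 tags in WT and 30 in Cxcr3-/-. At an equal scaled pileup the monocyte libraries would have given 18.3 and 20.5 tags there, below their median pileup of 21. The locus held a promoter with more signal in monocytes and an upstream region called in CMP/GMP alone.

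Clec12a, the gene of an inhibitory myeloid receptor (MICL) that binds uric acid crystals, also differed between its promoter and its body. The promoter region, chr6:129349602-129350395, had 46, 114, 69 and 71 tags. Its log2 cell type ratios, 0.09 (−0.47 to 0.66) in WT and −0.13 (−0.58 to 0.31) in Cxcr3-/-, were within counting error of 0. By contrast, a region 1165 bp into the gene (chr6:129351191-129351628) had 24, 39, 81 and 61 tags. Here the ratios were 1.26 (0.59 to 1.98) and 1.20 (0.59 to 1.82), among the highest of all the C-type lectin regions and nearly the same in each genotype. Further along the body, chr6:129363294-129363702 was not called in WT CMP/GMP and had 26, 42 and 45 tags in the other 3 libraries, with a ratio of 1.34 (0.62 to 2.10) in Cxcr3-/-.

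The rest of the Dectin-1 cluster shares its regions. Clec12b, an inhibitory receptor gene, spans the bodies of Clec1b, the receptor for podoplanin on platelets, and Clec9a, the receptor of dendritic cells for actin of dead cells, and it overlaps the edge of Clec1a. The strongest region, chr6:129434257-129434610, lies in the body of Clec1a and within 10 kb of Clec12b and Clec9a. It had 65, 120, 87 and 81 tags, and its cell type ratios were −0.07 (−0.55 to 0.41) in WT and −0.01 (−0.44 to 0.40) in Cxcr3-/-, with both intervals across 0. The region between Clec1b and Clec9a (chr6:129407051-129407862), inside Clec12b, had 42, 63, 62 and 79 tags, with ratios of 0.07 (−0.52 to 0.67) and 0.88 (0.38 to 1.38). Over the cluster, 5 of 6 measured regions were above 0 in WT and 5 of 8 in Cxcr3-/-, with medians of 0.40 and 0.60. Of its 30 regions 9 were called in all 4 libraries, 4 in the monocyte libraries alone and 1 in CMP/GMP alone. Over all regions these shares were 37%, 14.4% and 7.28%.

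**Figure D3:**
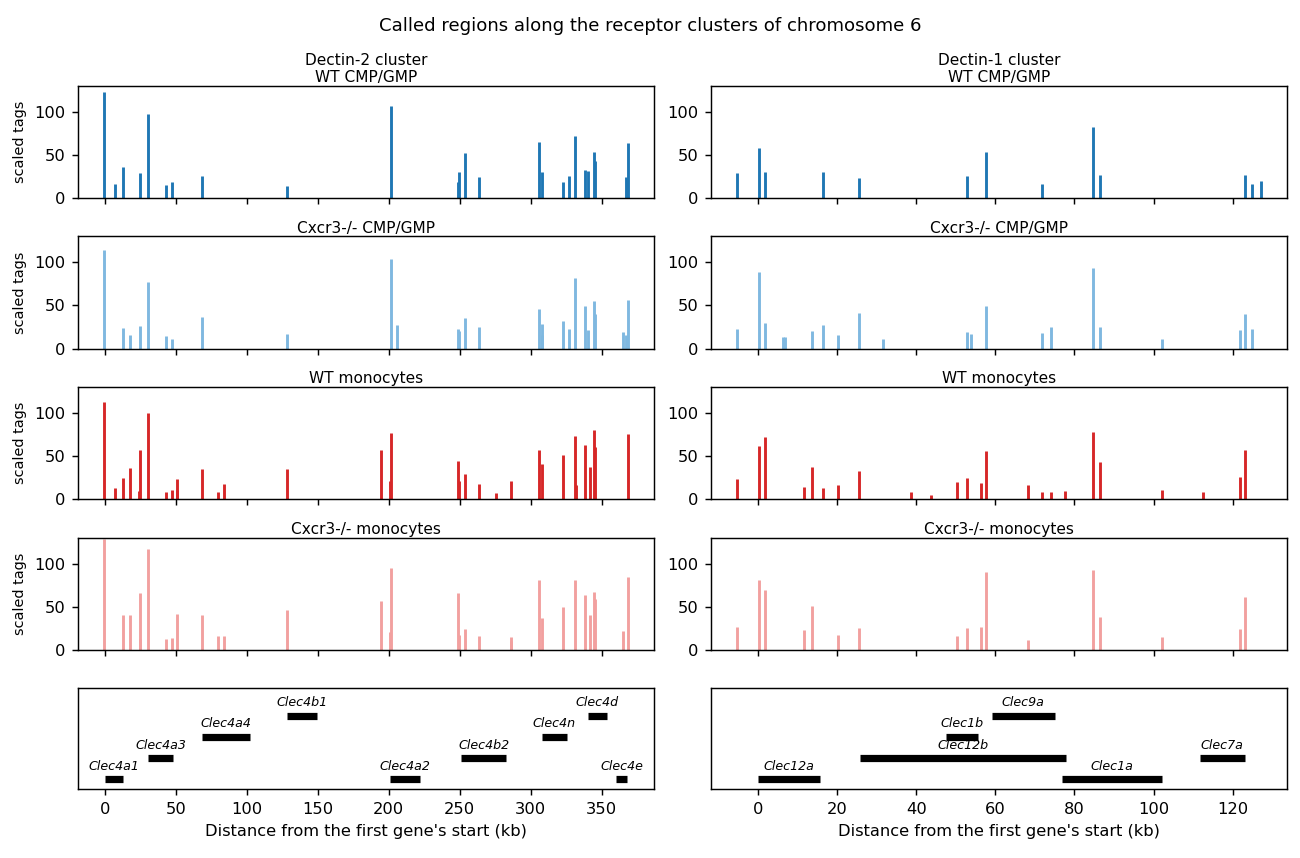
Called regions along the Dectin-2 cluster (left) and the Dectin-1 cluster (right) of chromosome 6; each bar is a region's summit pileup in scaled tags, 1 row per library, against the distance from the start of the first gene in kb, with gene bodies as black bars below. In the Dectin-2 cluster the bars just before Clec4a2 and 1 bar within Clec4d (chr6:123263234-123263425) appear in the monocyte rows alone. The other bars within Clec4d, which are taller, and the tall bars at Clec4a1, Clec4a3 and Clec4a2 stand in all 4 rows.

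The Dectin-2 cluster runs from Clec4a1 to Clec4e, chr6:122921848-123289871, and held 42 regions. Of these, 21 were called in all 4 libraries, 7 in monocytes alone and 3 in CMP/GMP alone. Over all regions the shares were 37%, 14.4% and 7.28%. The cluster's median cell type ratio was 0.33 over 14 regions in WT and 0.55 over 17 in Cxcr3-/-, where 14 of the 17 were above 0. The promoters of Clec4a1 and Clec4a3, genes of the DCIR family, were called with at least 77 tags in every library, and only 1 of their 4 ratios had a counting interval clear of 0. At Clec4a1 (chr6:122921141-122921909) there were 97, 148, 126 and 113 tags, with ratios of −0.12 (−0.51 to 0.28) in WT and 0.16 (−0.20 to 0.53) in Cxcr3-/-. At Clec4a3 (chr6:122952265-122952807) there were 77, 100, 111 and 103 tags, with 0.03 (−0.40 to 0.47) and 0.60 (0.18 to 1.01). A region at −5566 bp from the Clec4a3 start site (chr6:122946797-122947103) had 23, 34, 63 and 58 tags. There the ratios were 0.96 (0.25 to 1.72) and 1.32 (0.69 to 1.98), with counting intervals clear of 0 in each genotype.

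Clec4a2, which encodes the inhibitory receptor DCIR, had the strongest region called in monocytes alone. Centred at −6042 bp from the start site, chr6:123116354-123116943 had 64 tags in WT and 50 in Cxcr3-/- monocytes and was called in neither CMP/GMP library. Equal scaled pileups would have given 45.5 tags in WT and 73.3 in Cxcr3-/- CMP/GMP, well above the median pileups of those libraries. The region 603 bp into the same gene, chr6:123122976-123123612, had 84, 134, 85 and 84 tags. WT cells gave a ratio of −0.48 (−0.93 to −0.02) and Cxcr3-/- cells one of −0.12 (−0.53 to 0.28), but with scaling by background tags both turned positive, 0.51 and 0.32. The promoter window of Clec4a2 was also touched in monocytes alone, by the weaker region chr6:123122616-123122846, with 23 tags in WT and 18 in Cxcr3-/-. Equal pileups would have given 16.3 tags in WT and 26.4 in Cxcr3-/- CMP/GMP. Those lie below the median pileups of these libraries, 21 and 29, so the missing calls say little. Other genes of the cluster had regions called in monocytes alone too. In the body of Clec4d, chr6:123263234-123263425 had 42 and 36 tags in WT and Cxcr3-/- monocytes, where equal pileups would have given 29.8 and 52.8 in CMP/GMP. Beyond Clec4a3, chr6:122972759-122973058 had 26 and 37, with 18.5 and 54.3 at equal pileups.

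Mincle and MCL, encoded by Clec4e and Clec4d, sense the mycobacterial glycolipid trehalose dimycolate, and Clec4n encodes Dectin-2, a receptor for fungal mannan. The Clec4e promoter (chr6:123289511-123290384) had 50, 73, 84 and 74 tags, with ratios of 0.26 (−0.27 to 0.79) in WT and 0.57 (0.09 to 1.06) in Cxcr3-/-. In the body of Clec4n, chr6:123244134-123244600 had 15, 41, 57 and 44 tags, with 1.43 (0.59 to 2.36) and 0.65 (0.01 to 1.30). All 4 of these ratios were above 0, and only that of Clec4e in WT had a counting interval across it. At −1850 bp from the start of Clec4d, chr6:123259910-123260606 had 26, 64, 70 and 56 tags, with 0.94 (0.27 to 1.64) and 0.36 (−0.18 to 0.90). The promoter window of Clec4d was touched in CMP/GMP alone, by chr6:123261687-123261909, with 25 and 28 tags. Equal pileups would have given 35.2 tags in WT monocytes and 19.1 in Cxcr3-/- monocytes, the latter below their median pileup of 21. A flanking region of Clec4n, chr6:123248962-123249176, was also called in CMP/GMP alone, with 20 and 30 tags, and equal pileups would have given 28.1 and 20.5 in monocytes.

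The DCAR genes Clec4b1 and Clec4b2 encode activating receptors. The single region of Clec4b1, over its start (chr6:123049823-123050297), had 11, 22, 39 and 41 tags, and the ratio was 1.45 (0.67 to 2.27) in Cxcr3-/-. In WT the mean pileup missed the minimum, and no ratio was taken. Clec4b2 had ratios of opposite sign within a few kb. At −2616 bp from its start, chr6:123170159-123170657 had 15, 29, 49 and 58 tags, with ratios of 1.21 (0.36 to 2.16) and 1.55 (0.89 to 2.25). At 2678 bp into the gene, chr6:123175333-123176070 had 41, 46, 32 and 21 tags, with −0.85 (−1.56 to −0.15) and −0.58 (−1.40 to 0.20), which background scaling moved to 0.13 and −0.13. Scaling shifts both regions alike, so the upstream ratio stood above the body ratio under each. The Clec4a4 locus had 8 intervals, with an end region of 20, 48, 39 and 36 tags (ratio 0.14, −0.53 to 0.79, in Cxcr3-/-).

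The Clr genes encode surface ligands of NK receptors, and Clec2d, which encodes Clr-b, the ligand of an inhibitory receptor by which NK cells spare healthy cells, is the best known. Of 35 regions in 8 loci, 13 were called in all 4 libraries, 2 in monocytes alone and 3 in CMP/GMP alone. Over all regions the shares were 37%, 14.4% and 7.28%. The median cell type ratio of the 8 loci was 0.56 over 7 regions in WT and 0.22 over 9 in Cxcr3-/-. These loci include Clec2l, grouped here by its symbol although it lies far from the others, at chr6:38663069-38680865. It gave 5 of the regions, with 1 called in monocytes alone and 1 in CMP/GMP alone. The Clec2d promoter (chr6:129180375-129181126) had 63, 124, 83 and 57 tags, with ratios of −0.10 (−0.59 to 0.40) in WT and −0.57 (−1.05 to −0.10) in Cxcr3-/-, or 0.89 and −0.12 with background scaling. At −8726 bp from that start, chr6:129171669-129172110 had 15, 33, 44 and 50 tags and leaned the other way, with 1.15 (0.49 to 1.83) in Cxcr3-/-.

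Clec2e had the highest ratios of all, at a pair of adjoining regions in its body. The first, chr6:129097863-129098358, had 14, 43, 61 and 49 tags, with ratios of 1.63 (0.78 to 2.58) in WT and 0.74 (0.12 to 1.37) in Cxcr3-/-. Beside it, chr6:129097487-129097797 had 10, 22, 48 and 49 tags and a ratio of 1.71 (0.95 to 2.50) in Cxcr3-/-. A region at −2481 bp from the start (chr6:129103215-129103554) had 13, 39, 48 and 31 tags, with 1.39 (0.48 to 2.40) and 0.22 (−0.51 to 0.94). All 4 regions of this locus were called in every library, and in all but the most distant one the monocyte ratio was above 0 where measured.

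Clec2i, whose product Clr-g is bound by NK receptors, held the lowest ratio of all in Cxcr3-/- and, after a Clec5a region at −1.49, the next lowest in WT. Its body region chr6:128890893-128891374, 3543 bp from the start, had 45, 94, 27 and 14 tags. The ratios were −1.23 (−1.98 to −0.51) in WT and −2.19 (−3.12 to −1.38) in Cxcr3-/-, and they stayed below 0 with background scaling, at −0.25 and −1.75. Nearer the start, chr6:128888777-128889285 had 54, 91, 112 and 103 tags, with the opposite sign, 0.56 (0.08 to 1.06) and 0.73 (0.31 to 1.15). These regions also lie in the overlapping gene BC035044, and the data do not assign them to either gene. Clec2m had 2 regions called in CMP/GMP alone. The stronger, at −6160 bp from the start (chr6:129337840-129338043), had 23 and 39 tags, with 32.4 and 26.6 at equal pileups in monocytes. Another Clec2m region, chr6:129333699-129334167, had 83, 126, 77 and 77 tags, with −0.60 (−1.07 to −0.14) and −0.16 (−0.59 to 0.26), or 0.38 and 0.29 with background scaling. Clec2g with 17 intervals, Clec2f with 9, Clec2l with 8 and Clec2h with 3 stayed at or below 34 tags in every library.

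Among the receptor genes outside the clusters, Clec5a, which encodes the DAP12-linked activating receptor MDL-1 of myeloid cells, had 7 regions, of which 5 were called in all 4 libraries. Its promoter region (chr6:40585595-40586093) had 15, 41, 36 and 33 tags, with a ratio of 0.24 (−0.47 to 0.94) in Cxcr3-/-. At −2770 bp, chr6:40588441-40588711 had 40, 56, 20 and 20 tags, with −1.49 (−2.35 to −0.68) and −0.93 (−1.75 to −0.17), still −0.51 and −0.49 with background scaling. At −9357 bp, chr6:40594831-40595494 had 30, 54, 68 and 70 tags and lay the other way, with 0.69 (0.05 to 1.36) and 0.93 (0.39 to 1.47). In the body, chr6:40576296-40576682 had 44, 92, 93 and 83 tags, with 0.59 (0.05 to 1.14) and 0.40 (−0.04 to 0.85). Upstream of Clec5a the near region thus stood higher in CMP/GMP and the far region higher in monocytes, in each genotype. Clec10a, the gene of a galactose-binding receptor of macrophages, had an end region (chr11:70166250-70166898) with 30, 44, 64 and 40 tags and ratios of 0.60 (−0.05 to 1.28) and 0.41 (−0.24 to 1.07). In Clec4g, a gene known from liver sinusoidal endothelium, chr8:3718568-3718896 had 38, 58, 28 and 13 tags, with −0.93 (−1.69 to −0.19) and −1.60 (−2.60 to −0.72), or 0.05 and −1.16 with background scaling.

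The measured ratios of the genes of secreted and other lectins, 1 in WT and 2 in Cxcr3-/-, were below 0. Clec11a encodes a secreted growth factor that acts on blood progenitors, and its body region, chr7:44304563-44305657, was the strongest of all, with 151, 275, 130 and 112 tags. Both scaled CMP/GMP pileups were above both monocyte pileups, with ratios of −0.71 (−1.06 to −0.36) in WT and −0.74 (−1.07 to −0.42) in Cxcr3-/-, although background scaling gave 0.27 in WT and −0.30 in Cxcr3-/-. In Clec3a, chr8:114418951-114419260 had 33, 50, 12 and 12 tags, with −1.51 (−2.55 to −0.58) in Cxcr3-/- and −1.06 by background tags. Clec18a had 20 intervals of at most 36 tags, and Clec3b, which encodes tetranectin, 7 of at most 28.

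Counted in one way for all loci, 39 of the 136 regions (28.7%, against 20.4% of all regions) lay toward monocytes and 16 (11.8% against 13.7%) toward CMP/GMP. A region was counted if it was called in that cell type alone in both genotypes, or if its ratio had that sign in each genotype measured and a counting interval clear of 0 in at least 1; the count was added after the values were seen. Of the 32 genes 24 had a region toward monocytes and 14 a region toward CMP/GMP, and 11 had both: Clec7a, Clec4a2, Clec4b2, Clec4n, Clec4d, Clec4e, Clec2i, Clec2d, Clec2l, Clec5a and Clec11a. The same counts over all genes were not made, so these gene counts have no share to be read against. Some of the regions were weak. The monocyte region of Clec2l had 19 tags in WT and 8 in Cxcr3-/- and overlapped Hipk2. That of Clec11a had 16 and 10 and overlapped Shank1. Scaled by background tags, 50 regions lay toward monocytes (36.8% against 29.6%) and 9 toward CMP/GMP (6.62% against 8.63%).

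The other question was whether loss of Cxcr3 changes these loci. No C-type lectin region with a measured ratio differed by more than 2-fold between genotypes in either direction or cell type, except for 1 in CMP/GMP when scaled by background tags. In CMP/GMP it was 0 of 35 both ways, against 0.139% of all regions higher and 0.136% lower, and in monocytes 0 of 42, against 0.264% and 0.401%. At those rates 35 or 42 regions would hold less than 1 such region. Regions called in only 1 genotype of a cell type have no ratio. Called in all libraries but WT CMP/GMP were 8 (5.88%, against 4.94% of all regions), and in all but Cxcr3-/- CMP/GMP 1 (0.735% against 1.25%). That 1 was the Clec2i promoter region, chr6:128887262-128887716, with 22 tags in WT CMP/GMP. Called in all but Cxcr3-/- monocytes were 8 (5.88% against 4.67%), and in all but WT monocytes 1 (0.735% against 0.84%). Further regions without a genotype ratio were those called in a single library, counted above, and those called in 1 library of each cell type. Of the latter, 3 were called in Cxcr3-/- CMP/GMP and WT monocytes (2.21% against 2.55%). Another 2 were called in Cxcr3-/- cells alone (1.47% against 0.492%) and 1 in WT cells alone (0.735% against 0.774%). In CMP/GMP the median log2 ratio of Cxcr3-/- to WT was 0.00 (−0.0041) over 35 regions, with a range from −0.54 to 0.85, against 0.05 over all regions. Its sign was not stable: it was 0.05 with 25 kb on either side, 0.16 with at least 60 tags and 0.17 with background scaling. Of the 35 regions 17 were above 0 (48.6% against 56.9%), or 29 with background scaling (82.9% against 77.5%). Only 2 counting intervals lay above 0 (5.71%, against 2.68%) and 0 below. These were a region beside the end of Clec12b (chr6:129375174-129375451), with 18 tags in WT and 53 in Cxcr3-/- and a ratio of 0.85 (0.06 to 1.71), and the Clec12a promoter, with 46 and 114 tags and 0.60 (0.10 to 1.13). The Clec7a promoter, with 21 and 52 tags, stood at 0.60 (−0.15 to 1.41), within counting error of 0. At the other end, the Clec4b2 body region had 41 and 46 tags and a ratio of −0.54 (−1.18 to 0.11), and the Clec4n flank chr6:123227444-123228086 had 51 and 59 tags and −0.49 (−1.06 to 0.08).

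In monocytes the median was 0.18 over 42 regions, with a range from −0.34 to 0.85, against 0.00 (0.0030) over all 30652 regions. There 31 of the 42 were above 0 (73.8% against 50.3%), although only 4 counting intervals were clear of it (9.52% against 6.03%). Scaling by background tags lowered all ratios by the same amount and took the median of the C-type lectin regions to −0.18, with 11 of 42 above 0, against 15.2% of all regions; the distance of 0.18 from the median of all regions is the same under each scaling. In windows with at least 22 genes the median over all regions was −0.20, and that of 21 C-type lectin regions there was 0.22. With fewer genes it was 0.06 over all regions and 0.16 over 21. The largest ratios were those of the flank beyond Clec4a3 (26 tags in WT and 37 in Cxcr3-/-; 0.85, 0.09 to 1.63), of a flank beyond Clec4a1 (28 and 36; 0.70, −0.05 to 1.47), of the region between Clec1b and Clec9a (62 and 79; 0.69, 0.19 to 1.19) and of the region upstream of Clec4b2 (49 and 58; 0.58, 0.01 to 1.16). The lowest were the Clec10a end region (64 and 40 tags; −0.34, −0.94 to 0.26) and the region upstream of Clec2e (48 and 31; −0.29, −0.99 to 0.39). The Clec4n flank named above, with 63 and 71 tags, stood at 0.51 (0.00 to 1.03) here and at −0.49 in CMP/GMP.

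**Figure D4:**
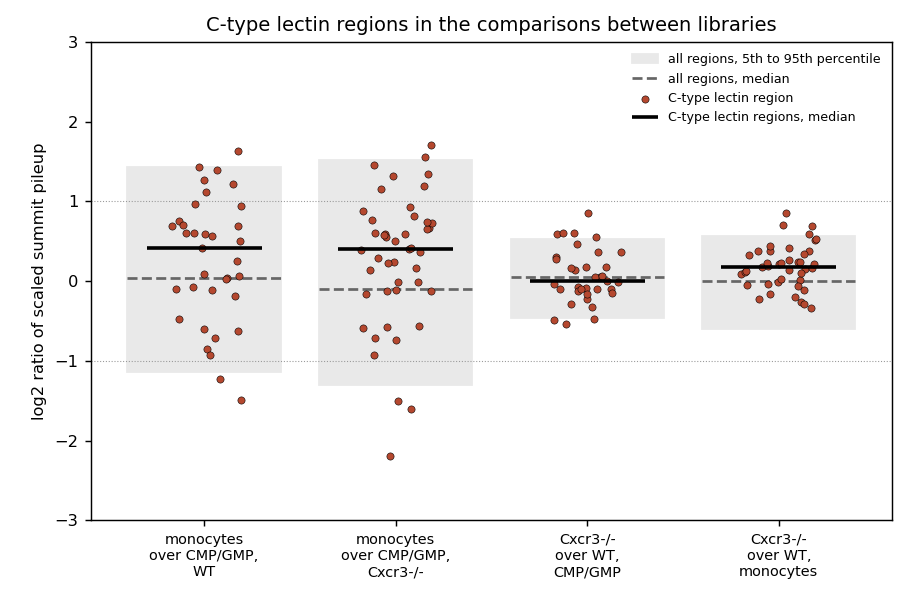
Log2 ratios of scaled summit pileup for every measured C-type lectin region (points) in the 4 comparisons, with their median (black line), beside the median (dashed) and the 5th to 95th percentile (grey) of all regions; dotted lines mark 2-fold. The cell type comparisons have medians of 0.41 and 0.40 and regions past 2-fold on both sides, while no point passes 2-fold between genotypes.

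The signalling genes behind these receptors were accessible in every library, with cell type medians near those of all regions. Among the 22 listed adaptor and signalling genes were Syk, Card9, Fcer1g, Tyrobp and the phosphatase gene Ptpn6. All 22 had intervals in each library, against 75.4% to 78% of all protein-coding genes. Over the regions of the 22 genes the median cell type ratio was −0.03 in WT (93 regions, 46.2% above 0) and −0.16 in Cxcr3-/- (99 regions, 39.4% above 0). Over all regions it was 0.03 and −0.10. The genotype medians were 0.12 in CMP/GMP and −0.11 in monocytes. Of 36 other genes of C-type lectin proteins, such as those of the mannose receptor, selectins and NK receptors, 29 to 31 had an interval in each library. The share of all protein-coding genes with one was 75.4% to 78%. Median cell type ratios of the 36 genes were −0.17 in WT and −0.19 in Cxcr3-/-, below those of all regions. Their genotype medians were 0.00 (−0.0041) in CMP/GMP and 0.09 in monocytes. Of the regions described above, 5 also fall in the loci of these genes.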

How the data were processed

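Accessible intervals of 4 Omni-ATAC-seq libraries, 1 per group as the labels give it, were analysed. The submitters' processing notes name Trim Galore, Bowtie2, SAMtools and the mm10 build. Neither the peak caller nor any pooling of the duplicate sequencing named in the labels is known: both are not given in the sources used here. Each interval's score, as deposited by the authors, was not used. The deposited fold enrichment is the ratio, by the authors' caller, of the summit pileup to its background, and the authors' −log10 p and −log10 q belong to that summit.

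From fold and −log10 p the whole-number pileup was recovered, assuming a Poisson background and 1 added tag; it came out whole within 0.001 for all but 3 intervals per list, and for every interval in the C-type lectin loci. Background was 135, 194, 96.0 and 97.3 tags per 10 kb (WT and Cxcr3-/- CMP/GMP, WT and Cxcr3-/- monocytes), the measure of depth here; single regions of about 30 tags are measured coarsely. Pileups were divided by 0.791, 1.29, 1.11 and 0.879, from median pileups over the 44591 regions called in all 4 libraries. Log2 ratios carry exact 95% Clopper-Pearson intervals for counting error. PCR duplicates, if kept, are not independent.

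Gene positions and promoters came from RefSeq tables of GRCm38.p6, which give no exons. The C-type lectin genes, the lists of adaptor and signalling genes, of other lectin proteins and of cell type markers, and the tests were chosen with earlier results of these data known. Genes were named by rule: the 12 with most intervals, those with a cell-type-specific region of at least 30 tags, the 5 highest and 5 lowest ratios per comparison, and those without intervals; other named regions were chosen after their values were seen. By the rule only the promoters of Clec12a, Clec4a3 and Clec5a were to be printed, and 5 were added. Alternatives were locus widths, equal-length lists, a −log10 q of at least 5, a reciprocal overlap of 50%, background scaling and other pileup minima; scaling by the median of ratios and keeping only regions nearest to a C-type lectin gene were added after seeing the data. The pileup recovery was tested on data simulated with the same Poisson background and added tag. That test cannot show that the authors' caller used them. Python 3.11.15, pandas 2.3.3, numpy 2.4.6, SciPy 1.17.1 and matplotlib 3.10.9 were used.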

Additional observations from a re-analysis of the deposited data

Results flagged for a closer look

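One pattern was picked out because the groups lay on opposite sides of 0. The median log2 ratio of Cxcr3-/- to WT over C-type lectin regions was −0.0041 in CMP/GMP (35 regions) and 0.1804 in monocytes (42 regions). With 1 library per group this difference was not tested. Neither sign held throughout: background scaling gives 0.17 in CMP/GMP and −0.18 in monocytes.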

How the results depend on the processing

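Of 136 alternative values for 18 results, 114 stayed within 1.5 times the count or, for medians, within the 95% interval of the median over regions, and the others did not (21 in size, and 1 whose interval was clear of 0 in sign). That interval is wide, so the sign of a median is given apart: of 36 alternative medians 5 changed sign. These were the WT cell type median at a mean of 60 tags (−0.02042 against 0.4139), the CMP/GMP genotype median with 25 kb on either side (0.05062), with background scaling (0.1717) and at 60 tags (0.1603), against −0.0041, and the monocyte genotype median with background scaling (−0.18). Taking gene bodies alone left 45, 60, 68 and 54 intervals (WT and Cxcr3-/- CMP/GMP, WT and Cxcr3-/- monocytes), 10 regions called only in monocytes, 3 only in CMP/GMP, 1 more than 2-fold lower in WT monocytes and 4 more than 2-fold higher in Cxcr3-/- monocytes. Regions called only in CMP/GMP numbered 11 with equal-length lists and 16 with a reciprocal overlap of 50%, against 7. Background scaling gave cell type medians of 1.396 in WT and 0.85 in Cxcr3-/-, with 23 and 19 regions more than 2-fold higher and 0 in WT more than 2-fold lower; between genotypes it gave 1 region more than 2-fold higher in CMP/GMP. Where regions needed a mean of 60 tags, 0 passed 2-fold in either direction in either genotype of the cell type comparison; with 10, 7 were more than 2-fold lower in WT. Why each of these moved was not tested, beyond the construction of the alternative itself.

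No paired analysis was possible because there is 1 library per group and the labels carry no replicate numbers and no library can be left out. Depth limits what a missing call means: the weakest called summits had 7, 9, 5 and 6 tags, and calls at such levels say little about the libraries without one.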
